A study of Mus musculus with 12 samples.

Results

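In a pair of mouse leukaemia lines, 65 genes had transcripts in every library of the line lacking Mcl1 (TKO) and almost none in the line that carries it (DKO), out of 24982 genes in the count table. The members were chosen on their measured values: at least 3 CPM (a gene's count scaled to a library total of 1000000) in all 6 TKO libraries and at most 3 counts in each of the 6 DKO libraries. The difference between the lines is therefore how the genes were found and is given below as a description, without a test. The response to low glucose within TKO is a separate measure, and it is tested. The thresholds touch its TKO values only by asking for a minimum level in all 6 TKO libraries. The spread in the test is estimated from all 12 libraries, so the near absence of DKO counts, which the thresholds asked for, enters there.

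The lines are murine B-ALL (acute lymphoblastic leukaemia of B cells), a malignancy of early B cells. DKO cells carried Bax-/-,Bak-/- and TKO cells carried Bax-/-,Bak-/-,Mcl-1-/-, so both lines lacked BAX and BAK, the pore-forming effectors of mitochondrial apoptosis, and they differed in Mcl-1, a BCL-2 family protein that blocks apoptosis. Each line was grown for 24 hours in regular medium or in low glucose medium, with 3 libraries in each of the 4 groups. The labels name 1 line of each genotype, so the deletion of Mcl-1 and any other difference between the lines cannot be told apart, and separate cultures are not named for the 3 libraries of a group, so p-values measure only how much these samples varied, which may be technical.

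DKO libraries held 35758895 to 56260867 counts and TKO libraries 22190736 to 42140396, so DKO, where the genes were silent, was the more deeply sequenced line. Mcl1 had 229 to 279 CPM in DKO and 6 to 14 counts per library in TKO, as labelled. All 13 early B-cell marker genes found in the table stood at 3 CPM or more in every library of both lines, with a summed level of 5272 to 5740 CPM in DKO and 5186 to 5575 CPM in TKO. Of 8 stromal or fibroblast markers none reached 3 CPM in all libraries of either line, and their summed level was at most 0.0533 CPM in DKO and 0.0495 CPM in TKO. Summed myeloid markers stood at 3.80 to 4.40 CPM in DKO and 0.463 to 1.34 CPM in TKO, germline markers at 0.0987 to 0.280 and 0 to 0.0989 CPM, natural killer markers at 0.494 to 3.75 and 1.18 to 2.75 CPM, and erythroid or megakaryocytic markers at 1.21 to 1.71 and 0.272 to 0.583 CPM. T cell markers, through Lck in both lines and Tcf7 in DKO, ranged from 97.2 to 108.7 CPM (DKO) and from 11.2 to 21.5 CPM (TKO), endothelial markers, through Pecam1, at 87.6 to 173 and 56.5 to 76.1 CPM, and neuronal markers, through Map2 and Tubb3, at 104 to 220 and 57.0 to 117 CPM. Of the Y chromosome, Ddx3y, Eif2s3y, Kdm5d and Uty had between 13790 and 45038 counts each summed over DKO and between 7 and 30 summed over TKO, a further difference between the lines beside their labelled genotypes. In TKO, replicate 2 of each medium and replicate 3 in low glucose lay furthest from their group means, by 0.0694, 0.0752 and 0.0719 (median size of the log2 deviation over genes averaging above 100 CPM), while the other TKO libraries lay 0.0327 to 0.0397 away.

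Whether a gene is transcribed at all is set at its promoter and enhancers, by the transcription factors present and by the state of the chromatin. Promoters rich in CpG dinucleotides are typical of broadly used genes, and their DNA can be methylated in cancer, which accompanies stable silencing. Lines of the same leukaemia type can therefore differ in genes that are fully off in some and moderately on in others, often genes best known from other tissues.

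Over all 65 genes the DKO libraries held 149 counts in a total of 281309472, and the TKO libraries held 189597 in a total of 191283602. The 149 DKO counts were 20, 21 and 25 in regular medium and 24, 27 and 32 in low glucose. Relative to each library's total this came to 0.436, 0.415 and 0.444 CPM summed over the genes in regular medium and 0.511, 0.755 and 0.699 CPM in low glucose, so the low glucose libraries were all above the regular ones, a description of values the thresholds used. In DKO 22 genes had no count in any library, 29 had 1 to 3 counts over the 6 libraries and 14 had more, and 5 reached 3 counts in some library. For the genes with no DKO count, 3 counts over the 6 DKO libraries, or 0.0107 CPM, were taken as the upper limit, which puts them at least 380-fold (Rgs20) to at least 3596-fold (Ptk2) higher in TKO. These limits, and the intervals given for ratios below, cover counting error only. The exchanged thresholds, on in all 6 DKO libraries and silent in all 6 TKO libraries, found 44 genes.

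At the edges of the thresholds, Pxylp1, Serpine2 and Mboat1 had the lowest TKO minima of the genes included, 3.01, 3.09 and 3.16 CPM. Tacc2, Ppp2r3a and Kcna5 fell just outside with TKO minima of 2.96, 2.88 and 2.84 CPM. Of the genes named here, Acer3 held the most DKO counts, 14 over the 6 libraries, followed by Prkcq with 12. Gfi1, Nov and Lrrtm2 fell outside because a DKO library held 4 counts, with TKO minima of 5.63, 13.1 and 53.9 CPM.

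**Figure D1:**
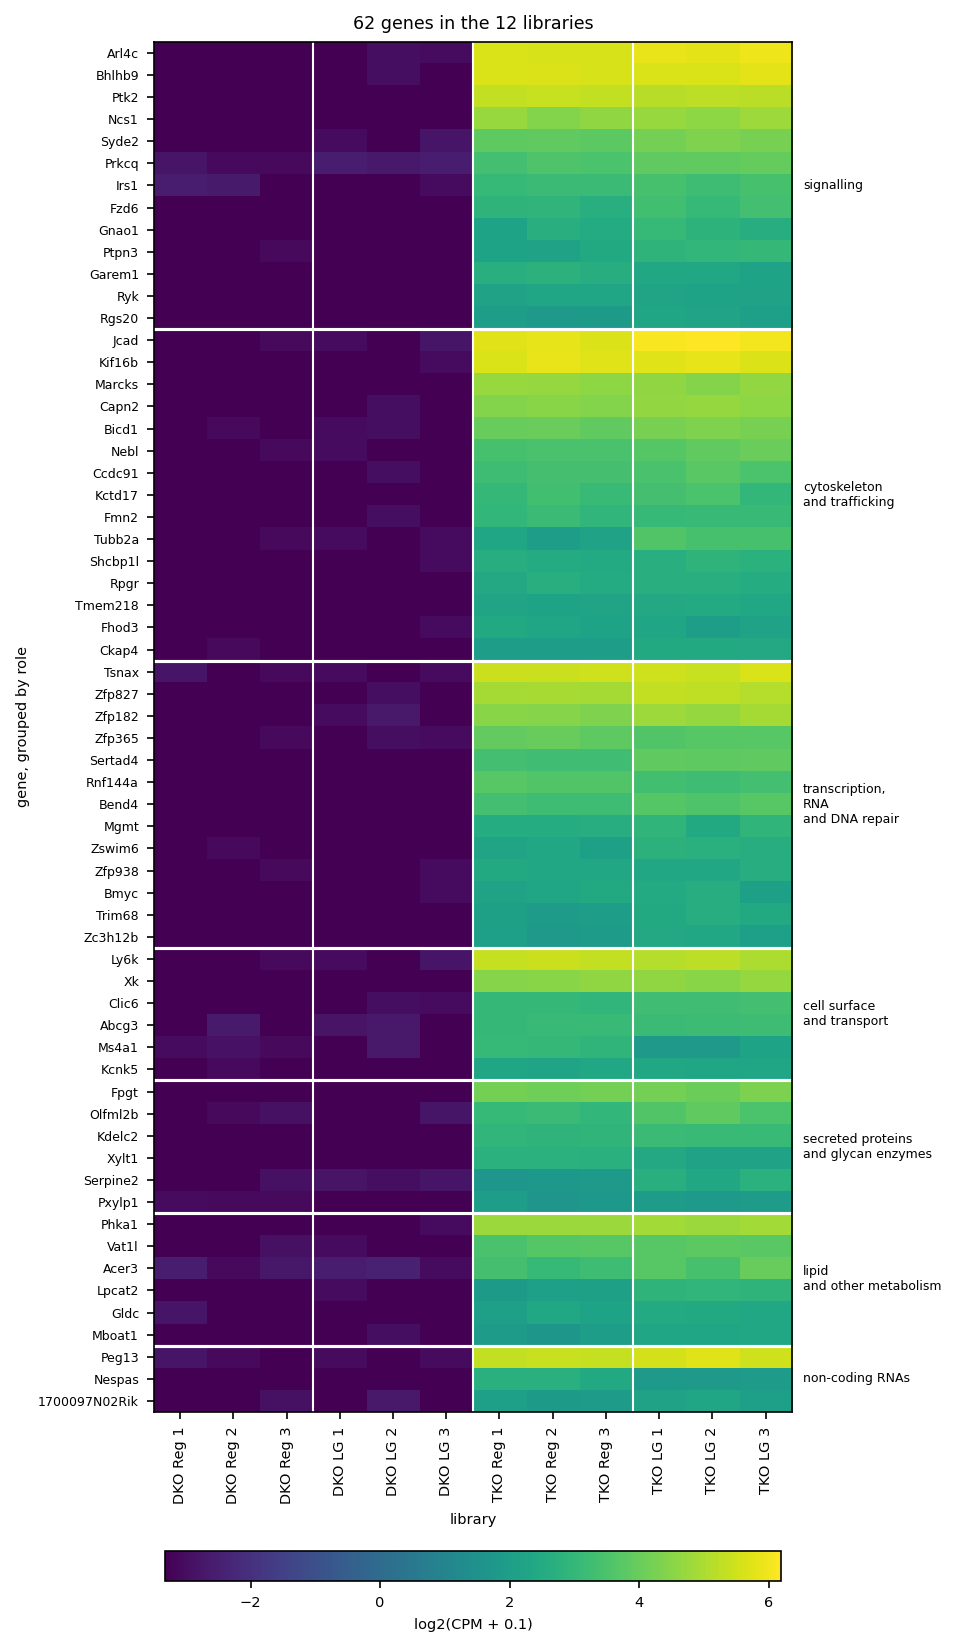
Level of 62 of the 65 genes (rows, grouped by role) in each of the 12 libraries (columns), as log2 of CPM plus 0.1 on the colour scale. The 6 DKO columns are uniformly dark, and the 6 TKO columns are lit for every gene shown, as the thresholds require.

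Compared per length, on the authors' TPM (transcript abundances corrected for length, summing to 1000000 per library), the genes were expressed at modest levels in TKO. Their median over the 6 TKO libraries was 5.18 TPM, from 1.23 TPM for Zc3h12b to 139.8 TPM for Ly6k, where the median of the 15151 genes above 0 in TKO was 10.5 TPM. In that ranking the median member stood at percentile 42.1, 47 members were under 10 TPM and 18 at or above it. The ranking is against genes that did not have to meet the minimum of 3 CPM, as the members did. Percentiles among genes that meet it are not given. They made up 0.698% of the 9315 genes with at least 3 CPM in all TKO libraries, and 61 of the 65 were annotated as protein-coding. By role, 16 belong to the cytoskeleton and trafficking (median 7.32 TPM), 14 to transcription, RNA and DNA repair (5.85 TPM), 13 to signalling (3.81 TPM), 7 to the cell surface and transport (4.80 TPM), 6 to secreted proteins and glycan enzymes (4.48 TPM), 6 to lipid and other metabolism (4.58 TPM) and 3 are non-coding RNAs (13.02 TPM). The roles were assigned from textbook knowledge after the values were seen.

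Promoter sequence was available for 44 of the 65 genes, as RefSeq windows on GRCm38.p6 (the mm10 assembly) from 250 bases before to 50 bases after the annotated start. In these windows the median GC content was 64.0% and the median ratio of observed to expected CpG was 0.751, against 61.0% and 0.791 in 7422 other genes with at least 3 CPM in all TKO libraries. Counting as CpG-rich a window with at least 55% GC and a ratio of at least 0.65, 29 of 44 genes (65.9%) were CpG-rich in at least 1 window, beside 68.0% of those other expressed genes, 40.8% of all 18203 genes with a window and 11.5% of 5533 genes with no count in any library. The genes on in DKO and silent in TKO were CpG-rich in 10 of 28 cases (35.7%). By base composition the windows of the TKO genes thus resembled those of other expressed genes. Of 5 short motifs searched on both strands, GGGCGG was found in 77.3% of the 44 genes (71.5% of the other expressed genes, 49.0% of all), CCAAT in 31.8% (44.004%, 42.1%), TATAAA in 13.6% (7.81%, 14.2%), TGANTCA in 9.09% (5.12%, 8.38%) and CACGTG in 9.09% (12.7%, 9.12%). No 2 of these motifs are contained in each other, and a match describes letters in the window, not a bound factor.

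Windows of 5 genes are printed 5′ to 3′ on the gene's strand, with each CG dinucleotide in capitals, because they run from dense to sparse CpG: Arl4c, Kif16b and Mgmt are among the highest members by TPM, Tubb2a rose most in low glucose, and Abcg3 is a sparse example. Arl4c (chr1:88702142-88702441, minus strand) holds 44 CpG, Kif16b (chr2:142901415-142901714, minus strand) 31, Tubb2a (chr13:34077959-34078258, minus strand) 25 and the first of 2 windows of Mgmt (chr7:136894336-136894635, plus strand) 20. The second window of Mgmt (chr7:136912848-136913147), not printed, holds 3 CpG and is not CpG-rich, with a ratio of 0.149. Mgmt is thus CpG-rich by its first window only, whose ratio of 0.652 is just over the limit. Abcg3 (chr5:104982668-104982967, minus strand), with 11, is not CpG-rich.
Arl4c: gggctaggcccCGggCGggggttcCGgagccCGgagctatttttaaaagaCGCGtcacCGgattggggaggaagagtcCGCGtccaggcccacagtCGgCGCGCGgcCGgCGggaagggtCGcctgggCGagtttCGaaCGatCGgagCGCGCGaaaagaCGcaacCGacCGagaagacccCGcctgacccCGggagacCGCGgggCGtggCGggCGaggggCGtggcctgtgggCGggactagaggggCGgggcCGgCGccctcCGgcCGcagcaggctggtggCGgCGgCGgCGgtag
Kif16b: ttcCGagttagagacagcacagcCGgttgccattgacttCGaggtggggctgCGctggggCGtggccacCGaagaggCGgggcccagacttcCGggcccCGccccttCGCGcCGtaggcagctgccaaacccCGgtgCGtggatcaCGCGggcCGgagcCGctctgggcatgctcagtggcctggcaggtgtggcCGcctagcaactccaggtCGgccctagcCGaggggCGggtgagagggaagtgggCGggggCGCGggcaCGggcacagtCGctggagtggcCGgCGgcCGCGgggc
Tubb2a: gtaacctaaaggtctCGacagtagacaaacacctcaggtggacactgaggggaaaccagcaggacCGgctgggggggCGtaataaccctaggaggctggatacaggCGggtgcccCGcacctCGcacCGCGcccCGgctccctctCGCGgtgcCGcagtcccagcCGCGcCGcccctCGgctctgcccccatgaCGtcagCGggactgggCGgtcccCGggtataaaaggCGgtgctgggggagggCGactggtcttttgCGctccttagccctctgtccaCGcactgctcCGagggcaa
Mgmt: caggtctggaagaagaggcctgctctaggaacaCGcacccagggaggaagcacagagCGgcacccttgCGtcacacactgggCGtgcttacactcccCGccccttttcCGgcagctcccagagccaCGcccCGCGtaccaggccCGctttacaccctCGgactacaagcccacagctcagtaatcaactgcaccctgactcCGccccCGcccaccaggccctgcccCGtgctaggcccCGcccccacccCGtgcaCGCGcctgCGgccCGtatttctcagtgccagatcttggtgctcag
Abcg3: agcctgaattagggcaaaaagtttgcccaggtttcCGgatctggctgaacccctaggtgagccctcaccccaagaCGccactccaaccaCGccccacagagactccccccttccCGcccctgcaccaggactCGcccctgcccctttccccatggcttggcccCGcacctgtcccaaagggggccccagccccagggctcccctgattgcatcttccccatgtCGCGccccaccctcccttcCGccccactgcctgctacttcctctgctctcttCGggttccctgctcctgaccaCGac

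**Figure D2:**
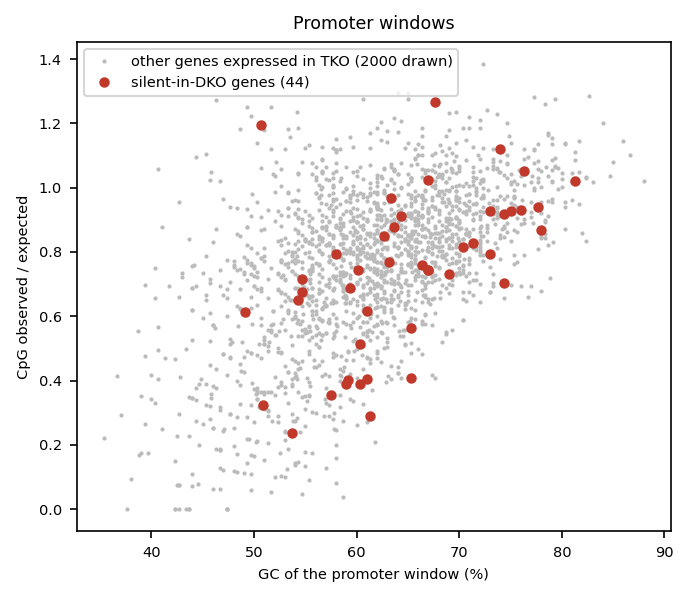
GC content (horizontal axis, percent) against the observed over expected CpG ratio (vertical axis) of promoter windows, for the 44 silent-in-DKO genes with a window (red) and 2000 of the other genes expressed in TKO (grey). The red points spread over the same area as the grey ones, with medians of 64.0% GC and a ratio of 0.751.

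The genes were spread over most chromosomes, though not evenly. Chromosome 1 held 11 of the 65 (16.9%, beside 5.80% of the genes with at least 3 CPM in all TKO libraries), chromosome X held 6 (9.23%, beside 3.14%), chromosome 18 held 3 (4.62%, beside 2.58%), and chromosome 11, with 803 expressed genes (8.67%), held none. Only 3 pairs of members lay within 1 Mb of each other: Peg13 and Ptk2 on chromosome 15, 394.8 kb apart, Xk and Rpgr on chromosome X, 760.4 kb apart, and Lpcat2 and Gnao1 on chromosome 8, 890.7 kb apart. Between Peg13 and Ptk2 lie 2 genes of the count table, both at 3 CPM or more in all DKO libraries, between Xk and Rpgr 7, of which 2 were, and between Lpcat2 and Gnao1 10, of which 0 were.

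Expressed neighbours mostly did not share the silence. Of 128 nearest expressed neighbours, at a median distance of 166 kb, 117 (91.4%) stood within 2-fold between the lines, where 89.0% of all 9628 expressed genes did. A further 5 (3.91%) were more than 2-fold higher in TKO and 6 (4.69%) more than 2-fold lower, beside 3.55% and 7.42% of all expressed genes. Zfp951, 74.99 kb from Abcg3, had 0.188 CPM in DKO and 18.6 CPM in TKO, and AW112010, 193.9 kb from Ms4a1, had 0.771 and 9.81 CPM. Zfp951 and AW112010 went the way of the members, but the largest difference of any neighbour went the other way, lower in TKO. Bphl lies 0.2 kb from Tubb2a and was expressed in both lines, with 5.24 CPM (DKO) and 3.99 CPM (TKO).

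Some members share exons with other genes, and whether counting used strand is not given in the sources used here. Nespas is antisense to Gnas, which had 609 CPM in DKO and 587 CPM in TKO. Rgs20 overlaps Atp6v1h on the opposite strand (82.2 and 79.6 CPM). Nespas and Rgs20 had no count in DKO beside these abundant partners. Bhlhb9 shares exons on the same strand with Gprasp1 (18.0 CPM in DKO, 23.7 in TKO), and the non-coding gene 1700097N02Rik overlaps Glo1 (31.0 and 44.7 CPM) and, on the opposite strand, Dnah8, which had 0.0913 CPM in DKO and 25.4 CPM in TKO. The level of 1700097N02Rik is therefore uncertain, since reads of Dnah8 and of it cannot be told apart without strand. Peg13 lies inside an intron of Trappc9 (40.4 and 27.2 CPM).

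Among the signalling genes, Bhlhb9, of the family of G protein-coupled receptor associated sorting proteins (chrX:135797594-135891081), was the highest per length at 36.0 ± 1.72 TPM (SD over the 6 TKO libraries). It had 1 count over the 6 DKO libraries. Arl4c, a small GTPase of the plasma membrane that recruits ARF exchange factors (chr1:88673125-88702221), stood at 24.4, 24.2 and 23.6 TPM in regular medium and 29.1, 27.1 and 30.1 TPM in low glucose, with 2 DKO counts. Ptk2, which encodes focal adhesion kinase (chr15:73205102-73423280), stood at 15.9, 17.3 and 15.9 TPM in regular medium and 14.3, 15.1 and 14.5 TPM in low glucose, with no DKO count. The media did not overlap for Arl4c or for Ptk2, and they moved in opposite directions. Ncs1, a neuronal calcium sensor (chr2:31245823-31295989), stood at 12.4, 10.6 and 11.6 TPM and then 12.7, 11.3 and 13.2 TPM, with overlapping media and no DKO count.

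The other 9 signalling genes lay between 1.52 TPM (Gnao1, a G protein alpha subunit) and 7.65 TPM (Prkcq, protein kinase C theta). They include Irs1, the adaptor of the insulin receptor, at 1.90 TPM, the Wnt receptor genes Fzd6 and Ryk at 3.81 and 2.74 TPM, the tyrosine phosphatase gene Ptpn3 at 1.84 TPM, the ERK pathway adaptor gene Garem1 at 2.24 TPM, Rgs20, which turns off G protein alpha subunits, at 3.25 TPM, and the GTPase-activating gene Syde2 at 5.73 TPM. Prkcq was the least silent of them, with 2, 1 and 1 counts in DKO in regular medium and 3, 2 and 3 in low glucose, a TKO to DKO ratio of 307 (95% exact Poisson interval 176 to 594).

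In the cytoskeleton and trafficking group, Kif16b, a kinesin that carries early endosomes towards microtubule plus ends (chr2:142617474-142901531), had 49.97, 58.6 and 52.6 CPM in regular medium and 52.9, 57.6 and 50.9 CPM in low glucose, with 1 DKO count. Per length it stood at 18.6 ± 1.38 TPM. Jcad, a cell junction protein gene (chr18:4634878-4682869), stood at 17.2 ± 2.40 TPM and Capn2, the catalytic subunit of a calcium-activated protease (chr1:182467260-182517608), at 13.9 ± 1.13 TPM. Jcad was higher in each low glucose library (65.6 to 72.9 CPM) than in any regular one (51.7 to 57.2 CPM). Marcks, a protein kinase C substrate that links actin to the membrane, stood at 11.3 ± 0.850 TPM and had no DKO count.

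Actin genes of the group included the formin genes Fmn2 and Fhod3 (2.42 and 1.39 TPM) and the nebulette gene Nebl (1.57 TPM). Microtubule and membrane traffic genes were the dynein adaptor gene Bicd1 (3.32 TPM), the tubulin gene Tubb2a (10.5 TPM), the Golgi sorting gene Ccdc91 (8.31 TPM) and Ckap4, which shapes the endoplasmic reticulum (3.14 TPM). Genes of the primary cilium were Tmem218 and Kctd17 (10.3 TPM each) and Rpgr (1.63 TPM), and none of these 3 had a DKO count.

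Tsnax, the partner of the RNA-binding protein translin (chr8:125012997-125034192), led the group of transcription, RNA and DNA repair at 38.2 ± 2.57 TPM and had 5 DKO counts. Mgmt, the enzyme that removes alkyl groups from guanine in DNA (chr7:136894614-137130266), stood at 21.0 ± 2.92 TPM. Its TKO libraries held 118 to 311 counts and its DKO libraries none, which puts it at least 604-fold higher in TKO. Bmyc, a relative of Myc without its DNA-binding domain (chr2:25706739-25707721), stood at 16.3 ± 2.32 TPM with 1 DKO count.

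Of 4 C2H2 zinc finger genes, Zfp827 stood at 8.37, Zfp182 at 7.84, Zfp365 at 6.26 and Zfp938 at 5.45 TPM. Bend4, Sertad4, Zswim6 and the RNase gene Zc3h12b stood at 2.60, 6.93, 1.91 and 1.23 TPM. The ubiquitin ligase genes Trim68 and Rnf144a stood at 4.04 and 4.08 TPM, without a DKO count.

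At the cell surface, Ly6k, a membrane-anchored protein of the Ly6 family best known from testis (chr15:74796874-74799986), had the highest level of all 65 genes. It stood at 147, 159 and 145 TPM in regular medium and 129.7, 139 and 119 TPM in low glucose, with no overlap. Among the 15151 genes above 0 TPM in TKO it stood at percentile 92.5. Its 4 DKO counts give a TKO to DKO ratio of 2635 (95% exact Poisson interval 1029 to 9672). Xk, a membrane protein that carries a blood group antigen, stood at 8.87 ± 0.499 TPM with no DKO count. Ms4a1, which encodes the B-cell surface protein CD20, stood at 3.90 TPM, with 6 DKO counts. The ion channel genes Kcnk5 and Clic6 stood at 2.82 and 4.56 TPM and the ABC transporter gene Abcg3 at 5.66 TPM.

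Secreted proteins and glycan enzymes included Serpine2, a secreted inhibitor of serine proteases (4.70 TPM), and Olfml2b, a matrix protein gene (6.65 TPM). Xylt1, which starts glycosaminoglycan chains on proteoglycans, stood at 3.62 TPM, and Pxylp1, which removes a phosphate from the linkage sugar of those chains, at 2.07 TPM. Fpgt, of fucose salvage, stood at 10.1 TPM and Kdelc2, a glucosyltransferase gene of the endoplasmic reticulum, at 4.26 TPM.

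Of the metabolic genes Phka1, a regulatory subunit of phosphorylase kinase, was highest at 8.53 ± 0.371 TPM. Acer3, a ceramidase gene, stood at 5.18 TPM, and Lpcat2 and Mboat1, which attach fatty acyl chains to lysophospholipids, at 3.99 and 2.89 TPM. Gldc, of the mitochondrial glycine cleavage system, stood at 2.52 TPM and Vat1l at 6.81 TPM. Acer3 was among the least silent genes in DKO, with 3, 1 and 3 counts in regular medium and 3, 3 and 1 in low glucose, a ratio of 235 (95% exact Poisson interval 140 to 429). The non-coding imprinted gene Peg13 (chr15:72805600-72810324) stood at 18.1 ± 2.04 TPM and Nespas at 4.37 TPM.

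Low glucose changed 32 of the 65 genes within TKO (edgeR quasi-likelihood test, Benjamini-Hochberg adjusted p under 0.05 over 11988 genes): 23 rose, 9 fell and 33 did not pass. The shares were 35.4% higher and 13.8% lower, where over all genes tested 39.9% were called, 22.0% higher and 17.9% lower. Among the 9315 genes with at least 3 CPM in all TKO libraries, which had to meet the same minimum, 21.8% were higher and 21.9% lower. The median log2 change was 0.17 over the 65 genes and 0.01 over all genes, and 50 of the 65 had a change above 0. In 40 of the 65 (61.5%) the 3 low glucose libraries did not overlap the 3 regular ones, as in 42.5% of all genes. Most changes were small: of the 65 genes only Tubb2a and Ms4a1 reached 2-fold. A fit without the 3 TKO libraries furthest from their group means, chosen after seeing the data, left a single low glucose library. Its calls are therefore not given, and the median log2 change of the 65 genes in it was 0.18.

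**Figure D3:**
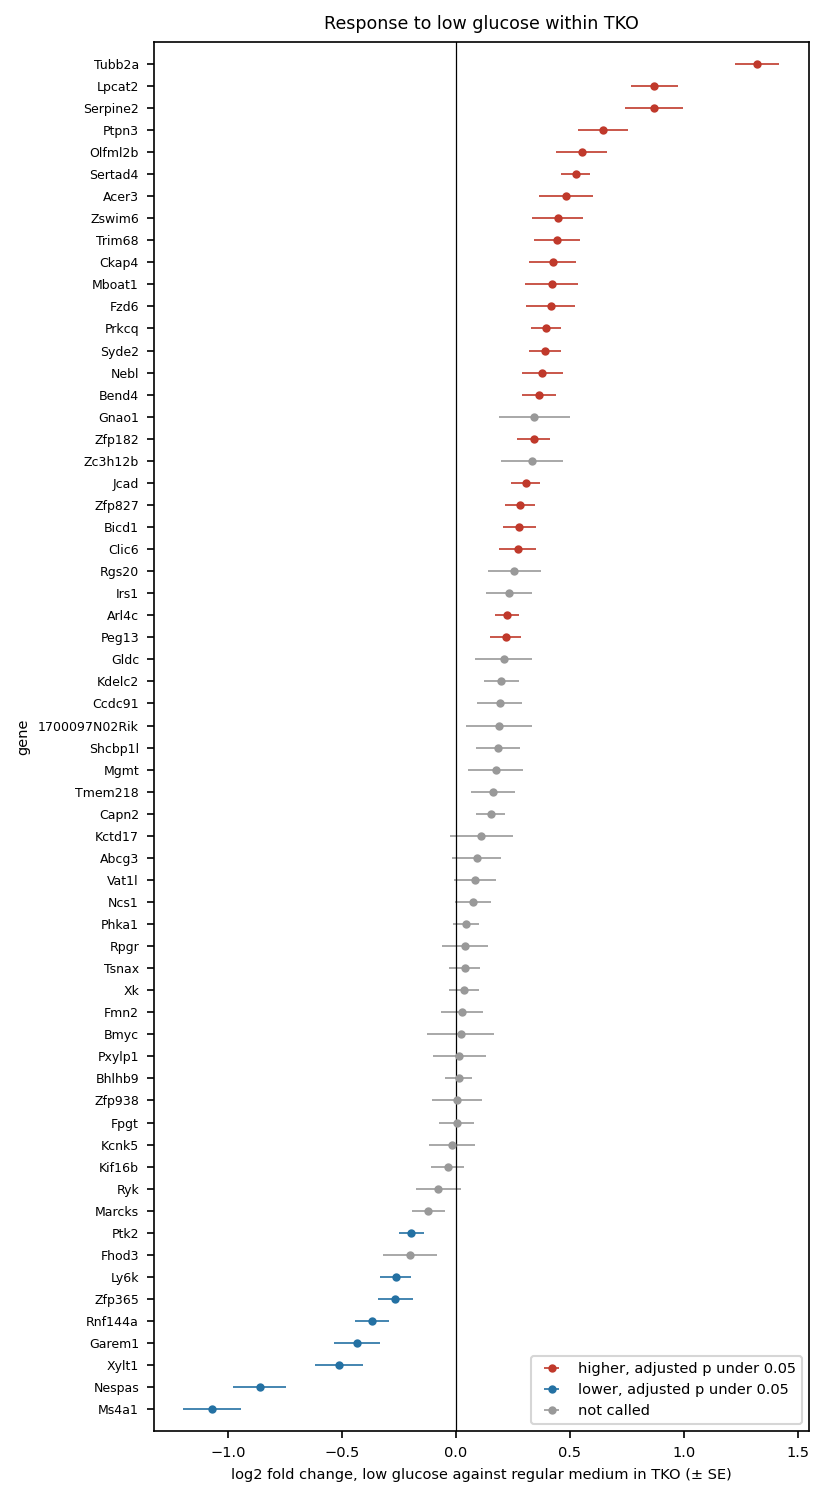
Log2 fold change of 62 of the 65 genes in low glucose against regular medium within TKO (points) with its standard error (bars), ordered by size and coloured by call. Tubb2a lies at the top at 1.32 and Ms4a1 at the bottom at -1.07, with 23 of the genes shown called higher and 8 called lower.

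Tubb2a, a beta-tubulin gene (chr13:34074274-34078007), rose most. Its TMM-scaled levels (CPM corrected for library composition) were 4.71, 4.01 and 4.40 CPM in regular medium and 11.8, 10.5 and 10.5 CPM in low glucose. The media did not overlap, and the change was 2.502-fold (log2 1.32 ± 0.0977, edgeR adjusted p = 2.97e-07). Its adjacent relative Tubb2b, 48.7 kb away, was expressed in both lines, at 6.02 ± 0.196 TPM in TKO in regular medium and 11.4 ± 0.926 TPM in low glucose, and at 3.30 ± 0.112 and 7.90 ± 0.170 TPM in DKO. How the counting treated reads shared by such relatives is not given, so the split between them is uncertain.

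Both fatty acyl transfer genes rose. Lpcat2 stood at 3.59, 4.09 and 4.14 CPM in regular medium and 7.14, 7.56 and 7.01 CPM in low glucose, 1.83-fold higher (log2 0.87 ± 0.102, edgeR adjusted p = 4.69e-05). Mboat1 went from 3.55 ± 0.301 to 4.77 ± 0.0585 CPM (SD, n = 3), 1.34-fold (edgeR adjusted p = 0.0122). That call ended without replicate 2 of both TKO groups (edgeR adjusted p = 0.0502). Without the 3 TKO libraries furthest from their group means, with a single low glucose library left, the log2 change of Mboat1 was 0.37, against 0.42. The ceramidase gene Acer3 rose 1.40-fold, from 10.3, 8.41 and 9.45 CPM to 12.8, 10.6 and 15.5 CPM (edgeR adjusted p = 0.00568). The low glucose libraries of Acer3 were all above the regular ones but spread widely. Phka1, Gldc and Vat1l did not pass, with log2 changes of 0.04, 0.21 and 0.08, so the metabolic group had 3 of 6 higher and 0 lower.

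Of the secreted and glycan genes 2 rose and 1 fell. Serpine2 stood at 3.12, 3.30 and 3.45 CPM in regular medium and 6.12, 5.05 and 6.59 CPM in low glucose, 1.83-fold higher (log2 0.87 ± 0.126, edgeR adjusted p = 0.000114). Olfml2b rose 1.47-fold, from 8.35 ± 0.527 to 12.4 ± 1.72 CPM (edgeR adjusted p = 0.00141). Xylt1 fell 1.43-fold, from 6.68, 6.76 and 6.45 CPM to 5.19, 4.34 and 4.29 CPM (edgeR adjusted p = 0.00341). Its groups did not overlap, while those of Pxylp1, of the same chains, did, at 3.44 ± 0.445 and 3.47 ± 0.103 CPM. Leaving out TKO regular replicate 2 and low glucose replicates 2 and 3, which lay furthest from their group means, left a single low glucose library. There the log2 change of Xylt1 was -0.31, against -0.51 in the main fit.

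Of the 13 signalling genes 5 rose and 2 fell. Ptpn3 rose most, from 4.51, 4.48 and 5.47 CPM to 7.09, 7.74 and 7.92 CPM, 1.56-fold (log2 0.65 ± 0.109, edgeR adjusted p = 0.000627). Fzd6, Prkcq and Syde2 rose 1.33-, 1.31- and 1.31-fold and Arl4c 1.17-fold. The call on Fzd6 ended without TKO regular replicate 3 (edgeR adjusted p = 0.0512). Garem1 fell 1.35-fold, from 6.44 ± 0.472 to 4.77 ± 0.301 CPM (edgeR adjusted p = 0.00706), and Ptk2 fell 1.15-fold, from 41.2 ± 1.60 to 36.1 ± 1.41 CPM (edgeR adjusted p = 0.0163). Without the 3 TKO libraries furthest from their group means, with a single low glucose library left, the log2 change of Garem1 was -0.28, against -0.43. Without TKO low glucose replicate 1 the fall of Ptk2 did not pass (edgeR adjusted p = 0.0627). Gnao1, Irs1, Rgs20, Ncs1, Bhlhb9 and Ryk did not pass, at log2 changes of 0.34, 0.23, 0.26, 0.07, 0.01 and -0.08. In a fit of the 6 TKO libraries alone with the replicate number as a block, Gnao1 and Irs1 passed (edgeR adjusted p = 0.039 and 0.0416).

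In the cytoskeleton and trafficking group 5 of 16 rose and none fell: Tubb2a, Ckap4 (1.34-fold), Nebl (1.30-fold), Jcad (1.24-fold) and Bicd1 (1.21-fold). Jcad went from 54.9 ± 3.12 to 68.0 ± 3.98 CPM (edgeR adjusted p = 0.0017). Nebl went from 10.9 ± 0.151 to 14.2 ± 1.58 CPM (edgeR adjusted p = 0.00432). Without the 3 TKO libraries furthest from their group means, with a single low glucose library left, its log2 change was 0.24, against 0.38. Kif16b, with 54.3 ± 4.82 and 53.0 ± 3.72 CPM, did not pass.

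In the group of transcription, RNA and DNA repair 6 of 14 rose and 2 fell. Sertad4 rose 1.44-fold, from 10.1, 9.63 and 9.71 CPM to 14.1, 14.1 and 14.2 CPM (log2 0.52 ± 0.0657, edgeR adjusted p = 0.000182). Its replicates were tight in both media. Zswim6, Trim68, Bend4, Zfp182 and Zfp827 rose 1.36-, 1.36-, 1.29-, 1.27- and 1.21-fold. Zc3h12b, at a log2 change of 0.33, did not pass, but did in the fit of the TKO libraries alone with a replicate block (edgeR adjusted p = 0.0389). Rnf144a fell 1.29-fold, from 12.5 ± 0.628 to 9.65 ± 0.362 CPM (edgeR adjusted p = 0.00295), and Zfp365 fell 1.20-fold, from 15.1 ± 0.806 to 12.6 ± 0.703 CPM (edgeR adjusted p = 0.0137). Without TKO low glucose replicate 1 the fall of Zfp365 did not pass (edgeR adjusted p = 0.0695). The 2 ubiquitin ligase genes Trim68 and Rnf144a thus moved in opposite directions, as did Zfp365 and the zinc finger genes Zfp182 and Zfp827.

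At the cell surface 3 of 7 fell and 1 rose. Ms4a1 (chr19:11249675-11266241) stood at 8.27, 8.17 and 7.49 CPM in regular medium and 3.40, 3.40 and 4.43 CPM in low glucose, 2.10-fold lower (log2 -1.07 ± 0.126, edgeR adjusted p = 2.13e-05). Ly6k fell 1.20-fold, from 41.4 ± 1.57 to 34.6 ± 2.93 CPM (edgeR adjusted p = 0.00732). For Ms4a1 and Ly6k the media did not overlap. Clic6 rose 1.21-fold (edgeR adjusted p = 0.0191), a call that ended without TKO regular replicate 3 (edgeR adjusted p = 0.0838) and without TKO low glucose replicate 3 (0.0526). Without the 3 TKO libraries furthest from their group means, with a single low glucose library left, its log2 change was 0.29, against 0.27.

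The imprinted non-coding genes went opposite ways. Nespas (chr2:174281237-174295436) fell from 6.57, 6.56 and 5.44 CPM to 3.25, 3.31 and 3.59 CPM, 1.82-fold (log2 -0.86 ± 0.115, edgeR adjusted p = 0.000274). Peg13 rose 1.16-fold, from 41.1 ± 1.15 to 47.9 ± 4.05 CPM (edgeR adjusted p = 0.0194), a call that ended without TKO regular replicate 1 (edgeR adjusted p = 0.0689), without TKO regular replicate 3 (0.0589) and in a fit of the TKO libraries alone without a block (0.0628). 1700097N02Rik did not pass, at a log2 change of 0.19.

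**Figure D4:**
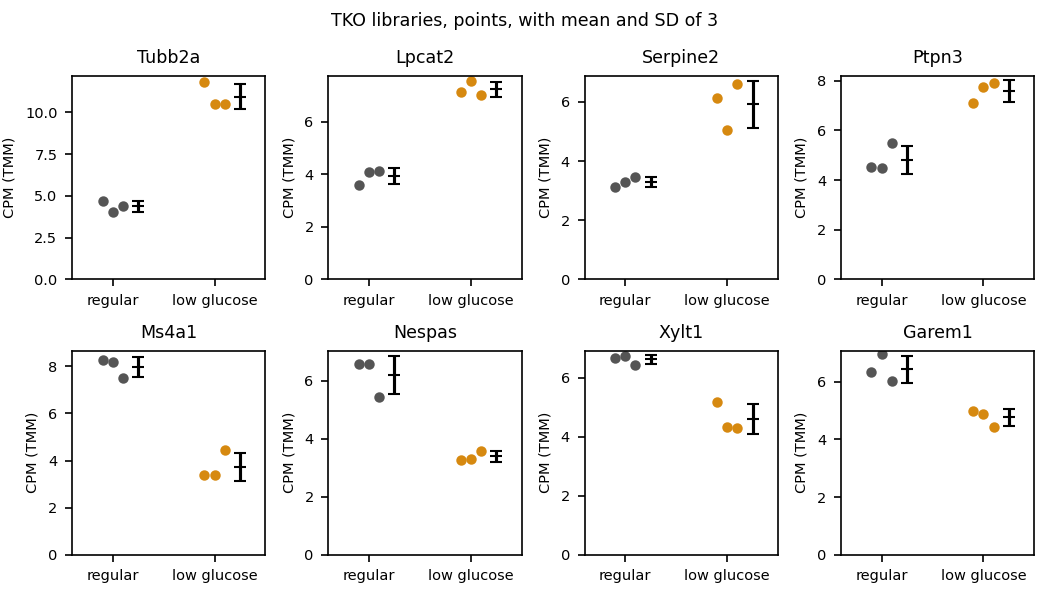
TMM-scaled CPM (vertical axes, starting at 0) of 4 genes that rose and 4 that fell in low glucose within TKO, each point a library, with the mean and SD of 3 beside the points. In all 8 panels the regular and low glucose libraries do not overlap, as for Tubb2a at 4.01 to 4.71 against 10.5 to 11.8 CPM.

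For several of the 65 genes a family relative, chosen after values were seen, was expressed in both lines. The focal adhesion kinase relative Ptk2b stood at 61.2 ± 0.505 TPM in DKO and 81.4 ± 2.26 TPM in TKO in regular medium, where Ptk2 itself was at 16.4 TPM in TKO. Ptk2b was 1.28-fold higher in TKO in that medium (edgeR adjusted p = 1.15e-06). The phosphorylase kinase gene Phka2 stood at 17.7 ± 0.365 and 15.9 ± 0.629 TPM, 1.16-fold lower in TKO (edgeR adjusted p = 0.00151). Prkcd, Gnai2, Lpcat1, Xylt2, Bicd2 and Irs2 were also present in both lines, at 6.23 TPM or more in DKO and 5.41 TPM or more in TKO in regular medium.

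Some relatives were lower in TKO. Marcksl1 stood at 136 ± 1.08 TPM in DKO and 51.6 ± 1.61 TPM in TKO in regular medium, 2.75-fold lower (edgeR adjusted p = 1.02e-11), while Marcks had no DKO count and 11.6 TPM in TKO. The kinesin genes Kif13a and Kif13b were 3.03- and 1.86-fold lower (edgeR adjusted p = 3.2e-11 and 7.18e-09). Mboat2 had the opposite pattern to Mboat1: 7.52 ± 0.166 TPM in DKO and 0 TPM in the 3 TKO libraries in regular medium, with at most 1 count in any TKO library. Other relatives were low in DKO as well. Capn1, at 0.524 ± 0.107 TPM in DKO, stood at 18.8 ± 1.21 TPM in TKO, 34.2-fold higher (edgeR adjusted p = 2.79e-14), alongside Capn2. Fzd3 had no count in DKO and 0.0580 ± 0.0201 TPM in TKO. In regular medium Arl4d stood at 0.436 ± 0.267 TPM in DKO and 0.168 ± 0.0457 TPM in TKO, and Acer2 at 0 and 0.00995 TPM.

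**Figure D5:**
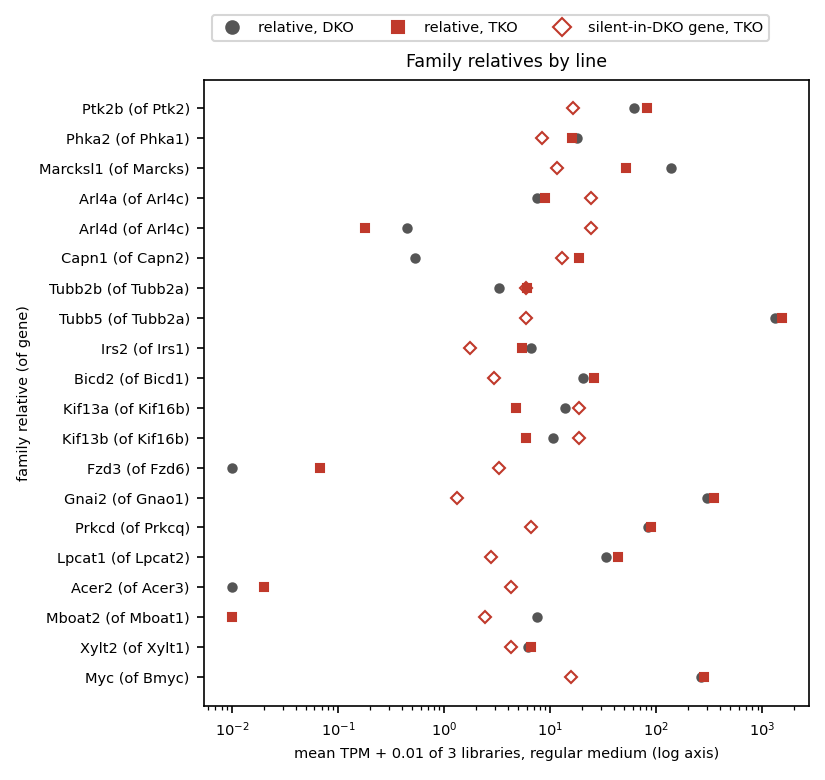
Mean TPM plus 0.01 (log axis) in regular medium of family relatives in DKO (grey circles) and TKO (red squares), with the corresponding silent-in-DKO gene in TKO (open diamonds). Relatives such as Tubb5, Gnai2, Myc and Ptk2b lie far to the right in both lines, Mboat2 only in DKO, and Capn1 further right in TKO.

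Across all tested genes, TKO differed from DKO in 61.7% in regular medium (28.3% higher, 33.4% lower) and in 74.6% in low glucose (37.2% higher, 37.4% lower), the background for the pathways around these genes. For the response to low glucose within TKO, the background for every list below is 22.0% of all tested genes higher and 17.9% lower. The pathway lists below leave the 65 genes out, and no set test was made. Of 37 tested genes of focal adhesion and integrin signalling, around Ptk2, 12 were higher and 19 lower in TKO in regular medium (median log2 -0.12, all genes -0.01), and 10 and 20 in low glucose. The integrin genes Itgal and Itga6 and the actinin gene Actn1 were 67.5-, 5.10- and 24.0-fold lower (edgeR adjusted p = 1.04e-16, 2.89e-15 and 1.36e-16). Within TKO low glucose raised 11 of the 37 and lowered 4, with Itgal 2.66-fold and Actn1 2.02-fold higher (edgeR adjusted p = 1.34e-07 and 2.72e-07). The count lowered was 2 without TKO regular replicate 2 or without TKO low glucose replicate 1, and 7 in the fit of the TKO libraries alone with a replicate block.

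Of 20 tested genes of glycogen metabolism, around Phka1, 4 were higher and 10 lower in TKO in regular medium, and 6 and 9 in low glucose. The glycogen synthase gene Gys1 was 5.90-fold lower (5.502 against 32.3 CPM, edgeR adjusted p = 1.74e-12). Within TKO low glucose raised 12 of the 20 and lowered 0 (1 without TKO low glucose replicate 2, median log2 0.39), Gys1 2.65-fold, the phosphoglucomutase gene Pgm2 1.83-fold and the branching enzyme gene Gbe1 1.42-fold (edgeR adjusted p = 7.33e-08, 2.85e-09 and 1.42e-06). Phka1 itself did not pass in that comparison.

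Of 28 tested kinesin genes, around Kif16b, 17 were higher and 7 lower in TKO in regular medium, and 19 and 6 in low glucose (median log2 0.25 and 0.82). Kif21b was 5.66-fold and the mitotic kinesin gene Kif20a 1.91-fold higher in regular medium (edgeR adjusted p = 1.97e-12 and 1.21e-09). Within TKO 10 of the 28 rose in low glucose and 2 fell (1 without TKO regular replicate 2, 5 in the fit of the TKO libraries alone with a block). Of 48 tested ARF and ARL GTPases and exchange factors, around Arl4c, 10 were higher and 16 lower in TKO in regular medium, 13 and 22 in low glucose, and within TKO 16 rose and 5 fell (3 without TKO regular replicate 1 or 3 or TKO low glucose replicate 2, and 8 in the fit of the TKO libraries alone with a block).

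Of 371 tested C2H2 zinc finger genes, the family of Zfp827, Zfp182, Zfp365 and Zfp938, 79 were higher and 157 lower in TKO in regular medium, and 106 and 165 in low glucose. Within TKO 100 of them rose in low glucose and 21 fell (median log2 0.10), with 62 higher without TKO regular replicate 3, 13 lower without TKO regular replicate 1, and 48 higher in the fit of the TKO libraries alone. Of 23 tested Wnt signalling genes, around Ryk and Fzd6, 8 were higher and 10 lower in TKO in regular medium, 9 and 11 in low glucose, and within TKO 5 rose and 3 fell (3 rose without TKO regular replicate 1 or 3 or TKO low glucose replicate 1, and 5 fell without the last). Tcf7, a transcription factor of the pathway, was 2.87-fold higher in low glucose within TKO (edgeR adjusted p = 2.25e-07). It did not reach 3 CPM in all TKO libraries. Of 11 tested protein kinase C and MARCKS genes, around Prkcq and Marcks, 3 were higher and 7 lower in TKO in regular medium, 3 and 5 in low glucose, and within TKO 3 rose (5 without TKO regular replicate 2) and 1 fell.

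Of 66 tested ion channel genes, around Kcnk5, 24 were higher and 31 lower in TKO in regular medium, 26 and 34 in low glucose, and within TKO 20 rose (13 without TKO regular replicate 3 or TKO low glucose replicate 1) and 1 fell (2 without TKO regular replicate 2). Of 16 tested imprinted genes, around Peg13 and Nespas, 4 were higher and 5 lower in TKO in each medium, and within TKO 4 rose (2 without TKO regular replicate 1 or 3) and 1 fell (2 without TKO low glucose replicate 3), with Grb10 higher 1.74-fold (edgeR adjusted p = 2.9e-08). Of 16 tested calcium sensor and calmodulin kinase genes, around Ncs1, 5 were higher and 6 lower in TKO in regular medium, 7 and 4 in low glucose, and within TKO 6 rose and 3 fell, with Camk4 1.92-fold higher (edgeR adjusted p = 3.19e-08). Of 13 tested spectrin and ankyrin genes, around Xk, 4 were higher and 6 lower in TKO in regular medium, 5 and 5 in low glucose, and within TKO Sptan1 alone was called, 1.14-fold higher (edgeR adjusted p = 0.00256), where leaving out TKO regular replicate 2 gave 5 called higher and TKO low glucose replicate 1 or 3 gave 2.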

How the data were processed

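Messenger RNA was sequenced in 12 libraries of mouse B-ALL cells, from total RNA and a strand-specific kit per the labels' protocols. Reads were aligned to mm10 with STAR 2.7.3a and DESeq2 1.22.1 was used, per the submitters' processing notes. The authors deposited raw read counts per gene (24982 symbols) and TPM (23640 symbols, summing to 1000000 per library). The strand and multi-mapping settings are not given in the sources used here. The authors' tables of line comparisons were not used here.

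Genes with at least 3 CPM in all 6 TKO libraries and at most 3 counts in each DKO library were taken, and 1 of the 66 that met the thresholds was left out. Another 3 members, a neighbour and some list genes stay in the counts but are not reported here. The members and gene lists were chosen with earlier results of these data known. Coordinates come from the GENCODE annotation of GRCm38 (mm10). The counts were fitted with edgeR 4.0.16 in R 4.3.3 (filterByExpr by group, count minimum 10, total minimum 15, TMM, quasi-likelihood F-test, 4 group means, 12 libraries, 8 residual degrees of freedom, 11988 genes). A call needs an adjusted p (Benjamini-Hochberg) under 0.05. The test was also run on simulated counts drawn independently for each library, without replicate effects, and the outcome is not given here. SE are from the model and SD are over 3 libraries unless stated. Shares and counts of neighbours use 2-fold on CPM plus 0.1. The main fit had no replicate block, so its p-values take no account of the replicate numbers. In TKO, deviations from the group means correlated between the media at r = 0.183, 0.703 and 0.512 over genes for numbers 1, 2 and 3. Number 1 correlated higher (0.486) with another number. The numbers entered only alternative fits, as a block. DKO numbers did not pair. The fit with a replicate block, DESeq2 1.42.0, other scalings, no filter, the compared groups only and leaving out libraries were alternatives.

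Genes named are the 12 highest members by TPM (1 Riken clone left out), the 8 largest called rises and falls without overlap, members in a pathway list, the 3 genes nearest each threshold, and the list genes with the lowest adjusted p. Other members are named by role. The family relatives and the neighbours named were chosen after values were seen.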

Additional observations from a re-analysis of the deposited data

Results flagged for a closer look

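For 7 relatives of the silent-in-DKO genes the difference between TKO and DKO was not the same in both media, by edgeR's test of the interaction (difference in low glucose minus difference in regular medium, on the log2 scale, Benjamini-Hochberg adjusted over 11988 genes). The calpain gene Capn1 had the largest interaction of these, -1.54 (adjusted p = 1.52e-05): it was 34.2-fold higher in TKO in regular medium and 11.8-fold higher in low glucose, and in DKO it stood at 0.524 ± 0.107 TPM in regular medium and 2.04 ± 0.199 TPM in low glucose. Myc had an interaction of 0.62 (adjusted p = 0.0168), at 263 ± 4.22 and 173 ± 5.27 TPM in DKO and 279.5 ± 50.5 and 282 ± 55.9 TPM in TKO, where the replicates spread widely. The tubulin genes went opposite ways, Tubb5 at 0.36 (adjusted p = 0.000225) and Tubb2b at -0.33 (adjusted p = 0.0268). Ptk2b had -0.28 (adjusted p = 0.00123), Marcksl1 0.26 (adjusted p = 0.0218) and Arl4a -0.20 (adjusted p = 0.0448).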

How the results depend on the processing

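Over all settings 20 to 26 of the 65 genes were called higher and 7 to 10 lower in low glucose within TKO, and no called gene changed direction. With a replicate block over the 12 libraries 23 and 9 were called, the same genes, and in the added fit of the TKO libraries alone with a replicate block 26 and 10. The median log2 change of the genes, 0.17, was 0.21 with library totals, 0.147 with no filter, 0.149 with the compared groups only, 0.125 without replicate 2 of both TKO groups and 0.143 in the TKO libraries alone with a replicate block, and 0.128 to 0.190 leaving out each TKO library. Over all genes 1743 were called higher with the compared groups only, against 2632, and the cause was not tested. The number of genes meeting the thresholds was 122 with a minimum of 1 CPM, 24 with a minimum of 10 CPM and 22 with no DKO count allowed. Depth limits DKO levels to about 0.0107 CPM over the line, and genes near 3 CPM rest on as few as 74 counts per TKO library.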
